A study of Mus musculus with 24 samples.

Results

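The 8 genes of hepatic glucose handling studied here in newborn mouse brain and liver were Slc2a2, Gckr, Khk, Pklr, Fbp1, G6pc, Ppp1r3g and Mlxipl. They were chosen by name from a set of 9, and all probes carrying one of those names, or an accession whose current symbol is one, were taken. This gave 11 of the 41174 probes on the array and 8 of its 27845 gene names. Pck1, the ninth gene of the set, was not analysed here. The set was drawn up with earlier results of these data known, so the members' tests below describe them and are not independent evidence.

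Animals of the G20 group were clones of clones, taken at generation 20 of a line in which each clone's cells supplied the nuclei for the following round. The CC group held clones made from cumulus cells, the somatic cells around an oocyte, and G20 clones were likewise cumulus-derived per the labels. The NC group held controls conceived by ICSI, the injection of a sperm into an oocyte. All animals were female neonates labelled (C57BL/6 x DBA2) x 129/Sv, with no treatment named, and each group had 4 single-colour arrays in each tissue, 24 in all. The series' title asks whether reprogramming errors build up when clones are cloned again, so G20 and CC were each set against NC, and G20 against CC. The 4 G20 arrays of a tissue carry different numbers in their titles but the same animal name in another label, so they may not be 4 animals. For this reason the spread behind each p-value may be partly technical.

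The liver takes up glucose when it is plentiful and releases it when it is scarce. GLUT2 lets glucose cross the hepatocyte membrane in both directions, glucokinase traps it as glucose 6-phosphate, and pyruvate kinase closes glycolysis. Fructose 1,6-bisphosphatase and glucose 6-phosphatase run the opposite way and return glucose to the blood, a pathway that is switched on at birth when placental glucose stops. Glycogen is the store between them, and the transcription factor ChREBP (Mlxipl) raises glycolytic and lipogenic genes when glucose is high.

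Promoters of 3 genes are shown because the level of the gene set G20 apart from CC and NC on every liver array (Pklr) or varied most between arrays (G6pc and Ppp1r3g). Each is the RefSeq sequence of the 250 bases before a transcription start on GRCm38.p6, on the + strand, 5′ to 3′. Capitals mark letters that matched a searched motif. The Pklr window lies at chr3:89136373-89136622, the G6pc window at chr11:101367466-101367715 and the Ppp1r3g window at chr13:35967656-35967905.
Pklr: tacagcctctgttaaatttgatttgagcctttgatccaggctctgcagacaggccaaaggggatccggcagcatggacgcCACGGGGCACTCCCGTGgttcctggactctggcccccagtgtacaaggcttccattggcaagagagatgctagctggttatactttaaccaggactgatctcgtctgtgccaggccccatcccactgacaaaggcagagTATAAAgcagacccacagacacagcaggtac
G6pc: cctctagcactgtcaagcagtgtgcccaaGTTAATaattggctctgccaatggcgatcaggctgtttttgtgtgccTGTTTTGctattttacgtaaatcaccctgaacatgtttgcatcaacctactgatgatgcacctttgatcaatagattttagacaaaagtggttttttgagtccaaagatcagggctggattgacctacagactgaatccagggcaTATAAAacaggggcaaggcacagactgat
Ppp1r3g: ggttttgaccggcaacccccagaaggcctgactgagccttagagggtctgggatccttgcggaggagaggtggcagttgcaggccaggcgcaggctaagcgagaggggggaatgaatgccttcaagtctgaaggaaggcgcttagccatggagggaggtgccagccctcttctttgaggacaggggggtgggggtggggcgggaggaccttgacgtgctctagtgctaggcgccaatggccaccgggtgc
In the Pklr window the capitals are CACGNG and CNCGTG with 5 unfixed bases between them, the spaced pair of a carbohydrate response element, with its first base at −170 from the start, and TATAAA at −31. The spaced pair was found in 15 of 32851 RefSeq promoter windows (0.0457%), each 300 bases long and searched on both strands, and Pklr was the single member with a match. A second RefSeq start of Pklr, with its window at chr3:89135892-89136141, held no searched motif. In the G6pc window the capitals are GTTAAT at −221 (the core of an HNF1 site, in 7.10% of windows), TGTTTTG at −174 (an insulin response sequence, in 6.28%) and TATAAA at −29 (in 13.6%). CACGTG, the plain E-box, was in 7.15% of windows and was found at −71 in Khk and at −98 in Mlxipl. Khk also held GTTAAT at −60, and Gckr held TGTTTTG at −83 and GTTAAT at −59. The Ppp1r3g window held none of these letters. A match is a description of the sequence and not of a bound site.

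Levels are given as log2 of the scanner's processed signal minus the 75th percentile of the same array, so that 0 is the level of the probe at that percentile. A level of one probe cannot be set against that of another. All 11 probes were well above background on all 12 liver arrays and none was saturated. The 75th percentile signal was 441 to 561 on G20, 242 to 270 on CC and 276 to 341 on NC liver arrays. In brain it was 724 to 864 on G20, 403 to 467 on CC and 814 to 937 on NC arrays. Arrays of G20 and NC were scanned in the same session within a tissue, while all CC arrays were scanned in a session of their own, 221 days after the first. Each of the 6 slides held one group in one tissue, so group and slide, and for CC also group and scan session, cannot be told apart. All 10 hepatocyte markers were well above background on every liver array. Sums were taken over markers with no spot left out as an outlier in the tissue, which in liver omitted 4 of the 10, Alb among them. The 6 others summed, relative to the 75th percentile, to 1238 to 1569 in G20 liver, 981 to 1042 in CC liver and 1331 to 1489 in NC liver. In brain the sums of all 10 were 0.944 to 2.37 in G20, 1.67 to 4.93 in CC and 1.97 to 2.60 in NC. The 8 neural markers summed to 140 to 148 in G20 brain, 140 to 156 in CC brain and 147 to 152 in NC brain. In liver they summed to 0.272 to 0.393 in G20, 0.585 to 2.19 in CC and 0.353 to 0.417 in NC. Snap25, a synaptic protein gene, averaged 3.57 in G20, 3.09 in CC and 3.53 in NC brain. Alb, the albumin gene, averaged −4.19 in G20 brain, −2.80 ± 1.18 in CC brain (SD, n = 4) and −4.54 in NC brain. In liver it averaged 8.82 in G20 and 8.68 in NC and stood at 7.36 on the 1 CC array whose Alb spot was not left out.

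The members were liver genes in every group. The ratios below are of levels centred on each array's 75th percentile, whose signal was higher in brain than in liver. Without that centring, Fbp1 in G20 minus NC was 0.69 in liver and −0.10 in brain, so the order of these groups depends on it. Brain arrays of G20 and NC were scanned 49 days after their liver arrays. Dim probes lay higher in CC than in NC brain (median 0.91), and their part in the ratios was not tested. Fbp1 was 4689-fold higher in liver than in brain in G20, 1422-fold in CC and 4961-fold in NC. Gckr, whose protein binds glucokinase and holds it in the nucleus, was 570-fold higher in liver in G20, 271-fold in CC and 723-fold in NC. For Ppp1r3g the ratio was 59.9-fold in G20, 18.3-fold in CC and 70.7-fold in NC. For Mlxipl it was 44.2-fold, 37.5-fold and 56.3-fold in the same order of groups, and for the brighter Khk probe 30.5-fold, 18.4-fold and 38.7-fold. The second Khk probe gave 38.3-fold, 16.7-fold and 31.5-fold, so the order of G20 and NC differed by probe. Slc2a2 was not well above background on any brain array, so only a lower bound can be given. On each brain array the bound used the lowest signal that was well above background, or the probe's own signal where that was higher. Slc2a2 was at least 1481-fold higher in liver in G20, at least 928-fold in CC and at least 1270-fold in NC. G6pc was at least 3855-fold higher in liver in G20 and at least 2435-fold in CC. Pklr was at least 53.9-fold higher in liver in CC and at least 86.8-fold in NC. For G6pc in NC and Pklr in G20, 1 of 4 brain arrays was above background, so no ratio is given. In these bulk tissues, fewer cells of a type and less RNA per cell cannot be told apart.

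In liver the 8 members varied in how their group differences compared with the spread between arrays. For G6pc, Mlxipl and the brighter Khk probe no difference between group means exceeded the larger SD. For Pklr, Slc2a2, Fbp1, Gckr and Ppp1r3g some did. None of the 8 passed limma's adjusted threshold between G20 and NC, a comparison in which 7.23% of all 16364 genes tested were called, 4.24% higher and 2.99% lower in G20, and 1 member had an unadjusted p under 0.05. Their median log2 difference was −0.07, against 0.03 over all genes. Between CC and NC, 1 of 8 was called, lower in CC, where 40.6% of all genes were called and 21.6% were lower, and the medians were −0.10 for the members and 0.01 for all genes. Between G20 and CC, 2 of 8 were called, 1 in each direction, where 44.8% of all genes were, 25.2% higher and 19.6% lower in G20, and the medians were −0.01 and 0.02. These comparisons share samples, and the CC comparisons carry the scan session described above.

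**Figure D1:**
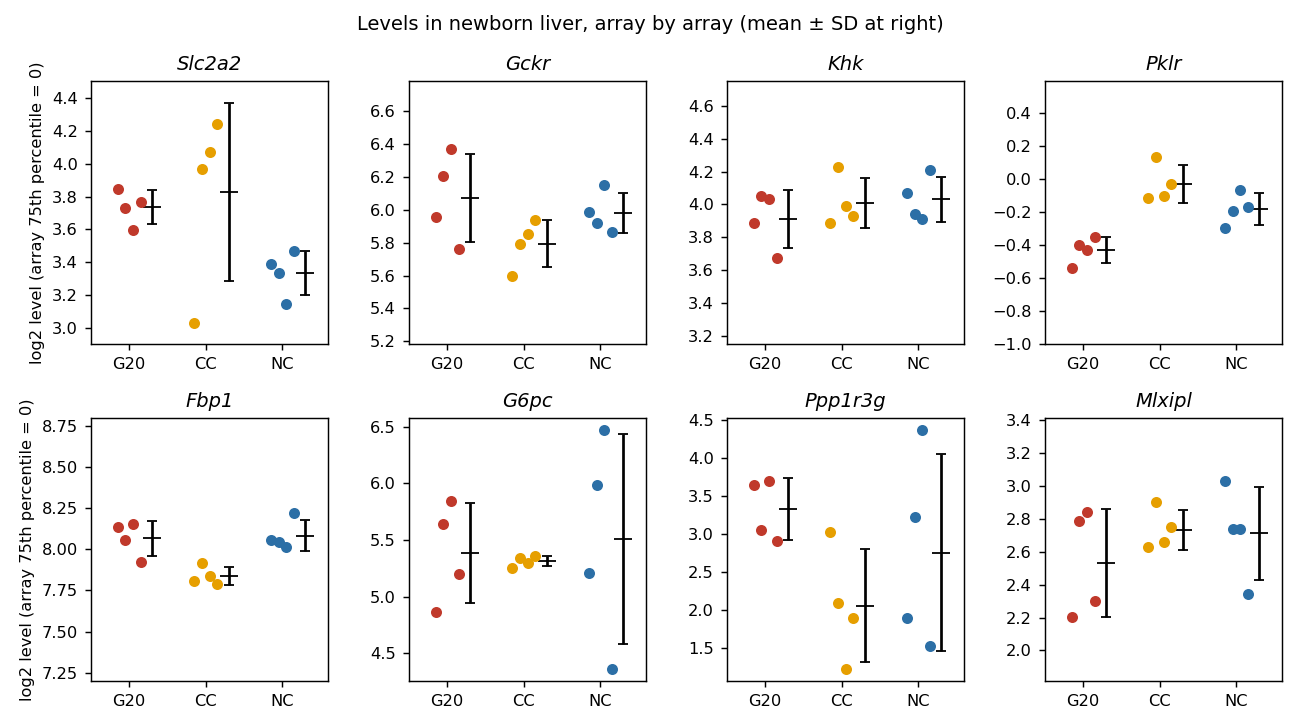
Log2 level of each member on the 12 liver arrays (y axis, 0 is the array's 75th percentile), with G20 at left, then CC and NC; bars are mean ± SD of 4 arrays, and each panel has its own y range. The 4 G20 arrays lie below the 4 NC arrays for Pklr and above them for Slc2a2, and NC arrays of G6pc and Ppp1r3g lie far apart.

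Slc2a2 encodes GLUT2, the low-affinity hexose transporter of hepatocytes. Its level was 3.85, 3.73, 3.60 and 3.77 on the G20 arrays, 3.03, 3.96, 4.07 and 4.24 on the CC arrays, and 3.39, 3.33, 3.15 and 3.47 on the NC arrays. All 4 G20 arrays were above all 4 NC arrays, as they were, in either direction, for 17.6% of all genes. The CC arrays were the highest but for the first, which was below every other liver array. The means were 3.74 ± 0.11 in G20, 3.83 ± 0.54 in CC and 3.34 ± 0.14 in NC (SD, n = 4 each). G20 was 0.40 above NC on the log2 scale (SE 0.21, 95% interval −0.06 to 0.86), with a limma adjusted p of 0.276. That difference was called in a fit of the G20 and NC arrays alone (adjusted p = 0.0403), with normexp background correction (0.99, adjusted p = 0.0305) and in the authors' processed values (0.41, adjusted p = 0.0337). CC was 0.49 above NC (SE 0.21, adjusted p = 0.0841), and without the first CC array the difference was 0.76 with an adjusted p of 0.000267. G20 and CC did not differ at the threshold with all arrays (−0.09, adjusted p = 0.748), while without the first CC array G20 was lower by 0.36 (adjusted p = 0.0177). The probe lies at chr3:28919167-28919226 on mm8. A second, dimmer probe whose target spans 709 bases of the genome, at chr3:28917404-28918112, gave differences of 0.13 for G20 minus NC and 0.17 for CC minus NC, and its levels correlated with the first at r = 0.781 over the 12 arrays. The G20 and NC arrays of the second probe overlapped, with 1.75, 1.57, 1.51 and 1.51 in G20 and 1.49, 1.25, 1.39 and 1.70 in NC.

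Gckr encodes the glucokinase regulatory protein. It stood at 5.95, 6.21, 6.37 and 5.76 on the G20 arrays, 5.60, 5.79, 5.85 and 5.94 on the CC arrays, and 5.98, 5.92, 6.15 and 5.87 on the NC arrays. The 3 groups overlapped, with the highest array in G20 and the lowest in CC. G20 minus NC was 0.09 (SE 0.13, 95% interval −0.19 to 0.38, adjusted p = 0.716). CC minus NC was −0.19 (adjusted p = 0.281) and G20 minus CC was 0.28 (adjusted p = 0.103), or 0.38 without G20 array 4 (adjusted p = 0.0293). With normexp background correction G20 minus NC was 0.74 (adjusted p = 0.0460). The probe lies at chr5:31603791-31603850 on mm8.

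Khk encodes ketohexokinase, which phosphorylates fructose. The levels of its brighter probe, at chr5:31207763-31207822 on mm8, were 3.89, 4.05, 4.03 and 3.67 on the G20 arrays, 3.89, 4.23, 3.99 and 3.93 on the CC arrays, and 4.07, 3.94, 3.91 and 4.21 on the NC arrays. The groups overlapped fully, and no difference between group means exceeded the larger SD. G20 minus NC was −0.12 (95% interval −0.37 to 0.12, adjusted p = 0.547). The second Khk probe, which spans 940 bases at chr5:31206237-31207176, gave 0.23 for the same difference, the opposite sign. The 2 probes correlated at r = 0.379 over the 12 liver arrays, so the direction of Khk in liver differed by probe.

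Pklr encodes the pyruvate kinase of liver and red cells, the last enzyme of glycolysis and a textbook target of ChREBP. Its probe spans 519 bases at chr3:89230912-89231430 on mm8. Levels were −0.54, −0.40, −0.43 and −0.35 on the G20 arrays, −0.11, 0.13, −0.11 and −0.03 on the CC arrays, and −0.30, −0.19, −0.06 and −0.17 on the NC arrays. Every G20 array was below every CC and every NC array, while CC and NC overlapped. Arrays of G20 and NC liver did not overlap, in either direction, for 17.6% of all genes. The means were −0.43 ± 0.08 in G20, −0.03 ± 0.11 in CC and −0.18 ± 0.10 in NC (SD, n = 4 each). G20 minus NC was −0.25 (SE 0.08, 95% interval −0.43 to −0.07), with an unadjusted p of 0.0114 and an adjusted p of 0.0919, so it did not pass the threshold over all genes. G20 minus CC was −0.40 (SE 0.08, 95% interval −0.59 to −0.22, adjusted p = 0.00228), a comparison in which the 4 arrays of the groups did not overlap for 39.8% of all genes. CC minus NC was 0.15 (adjusted p = 0.167). In the authors' processed values, where every CC array carries a further shift for each probe, G20 minus CC was 0.03 and was not called. Red cells also carry Pklr. Of 7 erythroid markers in liver 3 were higher and 1 lower in G20 than in CC, with a median difference of 0.22, and none was called between G20 and NC. The 4 with no spot left out summed to 115 to 130 in G20, 128 to 147 in CC and 125 to 143 in NC liver. The 3 neural markers measured in liver were lower in G20 than in CC. So were 6 of 8 endothelial and stellate markers (median difference −0.83) and 2 of 7 macrophage markers, with none higher in either list. Of 10 hepatocyte markers 8 were higher and 1 lower (median 0.53). Over all genes between G20 and CC liver, 25.2% were called higher and 19.6% lower in G20. Between G20 and NC, 2 of 8 endothelial and stellate markers were lower and none higher (median −0.36). The part of these markers in the result was not tested.

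Fbp1 encodes the fructose 1,6-bisphosphatase of liver, an enzyme of gluconeogenesis. Its probe lies at chr13:62874438-62874497 on mm8. Levels were 8.14, 8.06, 8.15 and 7.92 on the G20 arrays, 7.81, 7.92, 7.84 and 7.79 on the CC arrays, and 8.05, 8.05, 8.01 and 8.22 on the NC arrays. All CC arrays were below all NC arrays, as were 38.1% of all genes in either direction, and below all G20 arrays, though the lowest G20 and the highest CC array both stood at 7.92. CC minus NC was −0.25 (SE 0.08, 95% interval −0.42 to −0.07, adjusted p = 0.0276). G20 minus CC was 0.23 (SE 0.08, 95% interval 0.06 to 0.40, adjusted p = 0.0329), and G20 minus NC was −0.01 (95% interval −0.19 to 0.16, adjusted p = 0.933). Of the 10 hepatocyte markers, 8 were lower in CC than in NC liver, with a median difference of −0.63, and 8 were higher and 1 lower in G20 than in CC liver, with a median of 0.53. Of the 3 neural markers measured, 2 were higher in CC than in NC liver. Their part in the result was not tested. Under quantile normalization both Fbp1 differences turned round, to 0.26 for CC minus NC and −0.30 for G20 minus CC. Leaving out any of CC arrays 1, 3 or 4 or NC array 4 ended the call between CC and NC, with differences of −0.24 to −0.20. It held in 8 of 16 alternatives, 1 of them the quantile normalization with the opposite sign, and the difference was −0.09 with normexp and −0.08 in the authors' processed values. Leaving out any of CC arrays 1, 3 or 4 or G20 arrays 1, 2 or 3 ended the call between G20 and CC, with differences of 0.20 to 0.23. That call held in 5 of 16 alternatives, again with the opposite sign under quantile normalization, and the difference was 0.63 with normexp, 0.08 with median scaling and 0.03 in the authors' processed values, none of them called.

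G6pc encodes the catalytic subunit of glucose 6-phosphatase, which frees glucose for release. Its probe lies at chr11:101193723-101193782 on mm8. The levels were 4.86, 5.64, 5.84 and 5.20 on the G20 arrays, 5.26, 5.34, 5.30 and 5.36 on the CC arrays, and 5.21, 5.99, 6.48 and 4.36 on the NC arrays. The NC arrays held both the highest and the lowest value, 4.34-fold apart, the G20 arrays ran over 1.98-fold, and the CC arrays over 1.07-fold. Group means were 5.39 ± 0.44 in G20, 5.31 ± 0.05 in CC and 5.51 ± 0.93 in NC (SD, n = 4 each). G20 minus NC was −0.12 (SE 0.37, 95% interval −0.94 to 0.69, adjusted p = 0.878), CC minus NC was −0.20 (adjusted p = 0.705) and G20 minus CC was 0.07 (adjusted p = 0.891).

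Ppp1r3g encodes a subunit that targets protein phosphatase to glycogen, and in mouse liver it is known to follow feeding state. Its probe lies at chr13:35977595-35977654 on mm8. The levels were 3.65, 3.06, 3.70 and 2.91 on the G20 arrays, 3.02, 2.10, 1.23 and 1.90 on the CC arrays, and 1.90, 3.22, 4.37 and 1.53 on the NC arrays. The NC arrays ran over 7.14-fold, the CC arrays over 3.46-fold and the G20 arrays over 1.73-fold, and each pair of groups overlapped. G20 minus NC was 0.57 (SE 0.56, 95% interval −0.65 to 1.79, adjusted p = 0.573). CC minus NC was −0.70 (SE 0.56, adjusted p = 0.344). G20 minus CC was 1.27 (SE 0.56, 95% interval 0.05 to 2.49, adjusted p = 0.0835). Without the first CC array that difference was 1.59 with an adjusted p of 0.0439.

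Mlxipl encodes ChREBP, the glucose-sensing partner of Mlx. The levels of its brighter probe, at chr5:135422262-135422321 on mm8, were 2.20, 2.79, 2.84 and 2.30 on the G20 arrays, 2.63, 2.90, 2.66 and 2.75 on the CC arrays, and 3.03, 2.74, 2.74 and 2.34 on the NC arrays. The groups overlapped. G20 minus NC was −0.18 (SE 0.17, adjusted p = 0.557), CC minus NC was 0.02 (adjusted p = 0.933) and G20 minus CC was −0.20 (adjusted p = 0.357). The second Mlxipl probe, at chr5:135422512-135422571, gave −0.24 for G20 minus NC and correlated with the first at r = 0.939 over the 12 arrays.

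**Figure D2:**
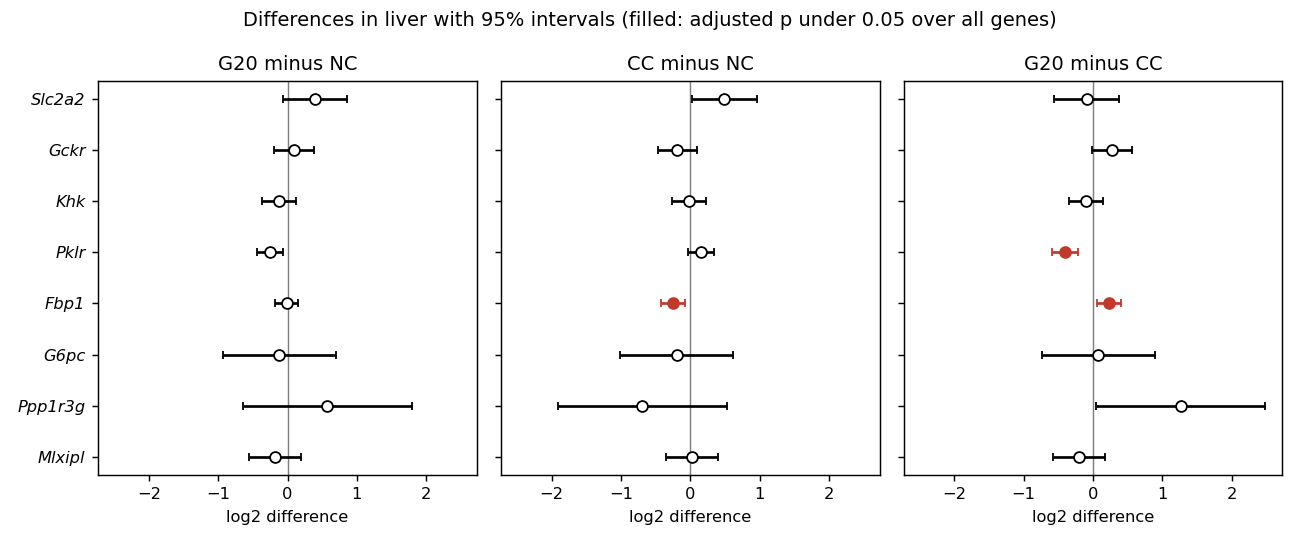
Log2 differences of the 8 members in liver with 95% intervals from the linear model (x axis), for G20 minus NC, CC minus NC and G20 minus CC; filled red points passed the adjusted threshold over all genes. Called differences are −0.25 for Fbp1 in CC minus NC, and −0.40 for Pklr and 0.23 for Fbp1 in G20 minus CC.

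By group mean in liver, Pklr ran from CC through NC to G20 with each step larger than the SD of both neighbours. For Slc2a2 the order was CC, G20 and NC, and CC and G20 lay within their spread. For Fbp1 it was NC, G20 and CC, with NC and G20 within their spread, and for Gckr G20, NC and CC, with G20 and NC within theirs. For Ppp1r3g, which ran G20, NC and CC, for G6pc (NC, G20, CC), for Mlxipl (CC, NC, G20) and for the brighter Khk probe (NC, CC, G20), no step between neighbours exceeded the larger SD.

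The spread between arrays of a group differed widely among the members. In NC liver Ppp1r3g had an SD of 1.30, larger than that of 99.5% of all genes, and G6pc one of 0.927, larger than that of 98.6%, where the median gene had 0.149. In G20 liver their SDs were 0.40 and 0.44, larger than 90.7% and 92.7% of genes with a median of 0.165. In CC liver Ppp1r3g stayed at the upper end with 0.74 (97.2%), while G6pc, at 0.05, was larger than 2.46% of genes, with a median of 0.181. Slc2a2 was wide in CC alone among the groups, with 0.54 (94.1%), through its first array. Fbp1 and Pklr were narrow in NC, with SDs of 0.09 and 0.10, above those of 24.6% and 26.6% of genes. These spreads over 4 arrays carry no test.

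**Figure D3:**
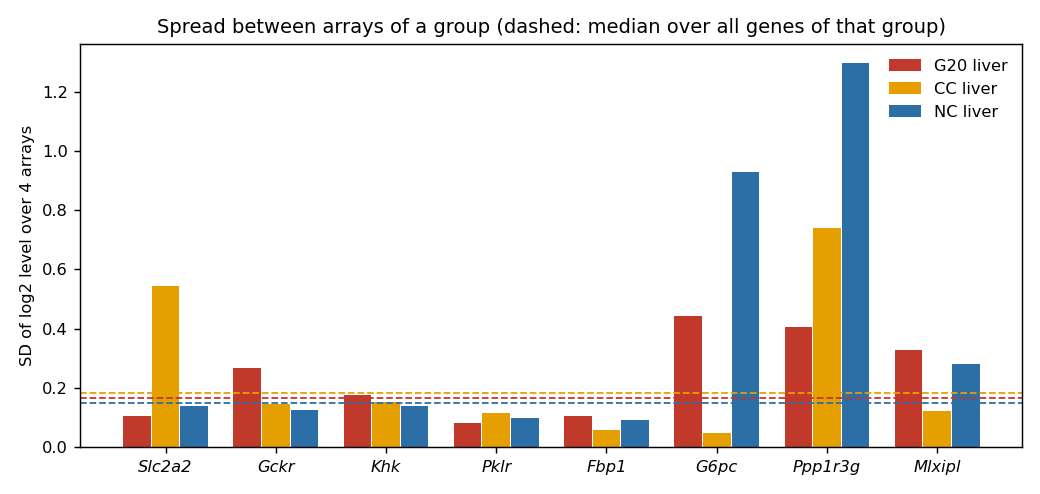
SD of the log2 level over the 4 liver arrays of a group (y axis, from 0) for each member, with G20, CC and NC bars from left to right; dashed lines are the median SD over all genes of the group. NC bars of Ppp1r3g (1.30) and G6pc (0.927) stand highest, and the CC bar of G6pc is 0.05.

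G6pc and Ppp1r3g tended to run together over the liver arrays. Both were highest on the third NC array (6.48 for G6pc and 4.37 for Ppp1r3g), next on the second among NC arrays (5.99 and 3.22), and lowest in NC on the fourth (4.36 and 1.53). In G20 the third array was again highest for both (5.84 and 3.70), but the first array was lowest for G6pc (4.86) while high for Ppp1r3g (3.65). Over the 12 arrays Pearson's r was 0.622 (permutation p = 0.0291) and Spearman's rho was 0.518 (permutation p = 0.0890). This was the strongest of 28 pairs of members by Pearson's r, none had an adjusted p under 0.05, and the lowest adjusted p was 0.466. By Spearman's rho it ranked below Fbp1 with Pklr (−0.699), Khk with Mlxipl (0.650) and Fbp1 with Gckr (0.566). The lowest adjusted permutation p for rho was 0.365. For G6pc and Ppp1r3g, r was 0.241 without the 2 arrays farthest from the G6pc median, so their relation rests on those arrays. Over the 8 G20 and NC arrays, which share a scan session, their r was 0.746. Pklr with Slc2a2 (−0.894) and Fbp1 with Khk (0.782) exceeded it in size there. The arrays share their scaling.

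**Figure D4:**
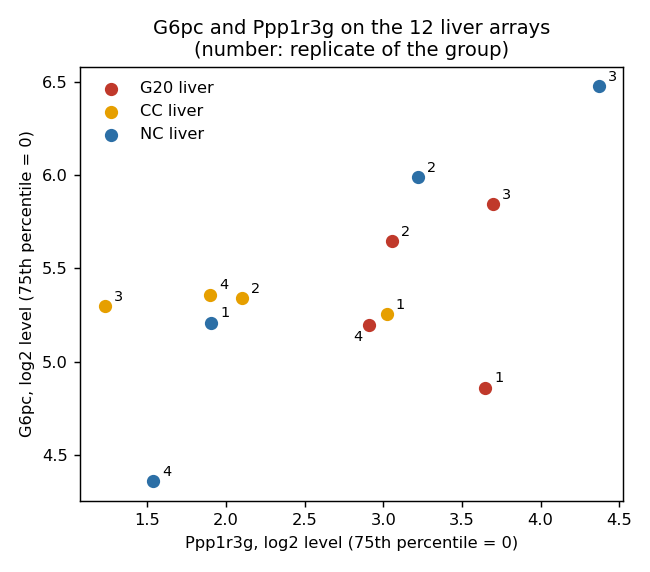
Log2 level of G6pc (y axis) against Ppp1r3g (x axis) on the 12 liver arrays, each numbered by its replicate, with G20 in red, CC in orange and NC in blue. NC arrays spread from 4.36 to 6.48 in G6pc and from 1.53 to 4.37 in Ppp1r3g, whereas CC arrays stay between 5.26 and 5.36 in G6pc.

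For each member, the gene most like it over the 12 liver arrays was sought among 16055 genes outside the members and pathway lists, by Pearson's r, as a description. Fbp1 was closest to Gcat (r = 0.982), a threonine-degrading enzyme gene, and Slc2a2 to Lnx2 (0.950). G6pc was closest to D18Ertd232e (0.959), Khk to Pkp3 (0.877), a desmosomal protein gene, and Ppp1r3g to Adra1a (0.880), the gene of an adrenergic receptor subtype. Pklr was closest to LOC670046 (0.963), and the closest to Gckr and Mlxipl were probes without a gene symbol (0.890 and 0.906). Over the 8 G20 and NC arrays alone these r were 0.958 for Gcat, 0.832 for Lnx2, 0.964 for D18Ertd232e, 0.946 for Pkp3, 0.911 for Adra1a and 0.946 for LOC670046. These 8 arrays are among the 12 by which each gene was picked for its highest r, so they are no separate check.

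Around the members, 131 further genes of glucose metabolism and its control were measured in liver, in lists of textbook membership. The lists were chosen with earlier results of these data known, so the shares called in them, here and below, are a description and not independent evidence. Between G20 and NC, 5 were higher and 17 lower in G20, so 16.8% were called, against 7.23% of all genes. In the same comparison 2 of 8 endothelial and stellate markers were lower and none higher, with a median difference of −0.36 and sums of 15.8 to 19.0 in G20 and 22.1 to 27.0 in NC liver. Their part in these counts was not tested. The largest share of the calls lay in the 19 partners and targets of ChREBP, of which 1 was higher and 8 were lower, with a median difference of −0.74. Thrsp, a lipogenic regulator, stood at −4.29, −2.50, −0.13 and −3.88 on the G20 arrays and at 2.82, 2.27, 2.02 and 2.23 on the NC arrays. Scd1, a fatty acid desaturase gene, stood at −1.13, 1.20, 3.20 and 0.99 in G20 and at 4.06, 4.01, 4.24 and 3.04 in NC. Acacb, an acetyl-CoA carboxylase gene, stood at 1.20, 1.25 and 0.83 on G20 arrays 1, 2 and 4, was higher on G20 array 3, and stood at 4.24, 3.93, 3.83 and 3.64 in NC. The third G20 array was the highest of its group for all 3 of these genes, and for Thrsp and Acacb all G20 arrays were below all NC arrays. Differences were −5.04 for Thrsp (adjusted p = 0.00326), −2.77 for Scd1 (adjusted p = 0.0348) and −2.34 for Acacb (adjusted p = 0.00669). Fgf21, a secreted hormone gene, averaged −6.26 in G20, where no array was well above background, and −3.18 in NC, and was at least 6.82-fold lower in G20 (adjusted p = 0.00402). Txnip, named after its value was seen as the one gene of the list that was higher, rose by 1.06 (adjusted p = 0.0149). Mlxipl itself and its partner Mlx differed by −0.18 and −0.03, and neither was called.

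The other lists held fewer calls between G20 and NC liver. In glycolysis 4 of 20 were lower and none was higher, with a median of −0.12. These were Aldoc (−0.68, adjusted p = 0.0137), Pfkfb1 (−0.53, adjusted p = 0.0288), Aldoa (−0.43, adjusted p = 0.0497, over 3 G20 and 4 NC arrays) and Hk1 (−0.36, adjusted p = 0.0375). In gluconeogenesis 2 of 15 were lower, Gpd1 by −0.57 and Gpt2 by −0.50, the genes of a glycerol 3-phosphate dehydrogenase and an alanine aminotransferase. Among 11 genes of fructose, polyol and galactose use, Tkfc, the triokinase gene of the same fructose pathway as Khk, fell by 1.00 (adjusted p = 0.0318). Of 18 glycogen genes 1 rose, Gaa, the lysosomal glucosidase (0.50, adjusted p = 0.00785). Of 18 regulators of gluconeogenesis 2 rose, the kinase gene Sik1 (0.61) and the transcription factor gene Klf15 (0.37). Of 8 sugar transporters Slc2a9, a urate and hexose carrier, rose (0.69), while Slc5a2 (−0.57) and Slc2a13 (−0.44) fell. None of 8 pentose phosphate genes and none of 14 genes of the insulin and glucagon response passed.

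Between CC and NC liver 22 of the 131 genes were higher and 26 lower in CC, 36.6% against 40.6% of all genes. Slc37a4, the transporter that brings glucose 6-phosphate to glucose 6-phosphatase, stood at 4.55, 4.35, 4.38 and 4.68 on the CC arrays and at 5.65, 5.55, 5.47 and 5.85 on the NC arrays. The groups lay about 1 log2 unit apart, a difference of −1.14 (adjusted p = 1.06e-05), while G6pc did not pass. Of 18 glycogen genes 6 rose and none fell, with Ppp1r3c, another glycogen-targeting subunit, at 2.15, 2.69, 3.40 and 3.34 on the CC arrays and 1.75, 1.49, 1.22 and 2.27 on the NC arrays (difference 1.21, adjusted p = 0.0108). Ppp1r3g, of the same family, had a difference of −0.70 that did not pass. Of the ChREBP list 9 of 19 fell and 1 rose, with −2.28 for Thrsp (adjusted p = 0.0295) and −1.90 for Acly (adjusted p = 0.000392), the gene of ATP citrate lyase. In gluconeogenesis 2 rose and 4 fell, in glycolysis 2 and 2, in the insulin and glucagon list 6 and 3, among the regulators 3 and 1, among the transporters 1 and 2, in the fructose list 1 and 1, and in the pentose phosphate list none and 4. As for Fbp1, 8 of 10 hepatocyte markers were lower in CC liver, and their part in these counts was not tested. Of 8 endothelial and stellate markers 4 were higher and none lower, with sums of 35.2 to 37.5 in CC and 22.1 to 27.0 in NC liver.

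Between G20 and CC liver 23 of the 131 genes were higher and 26 lower in G20, 37.4% against 44.8% of all genes. Hepatocyte markers were mostly higher (8 of 10, with 1 lower), while 6 of 8 endothelial and stellate markers, with a median of −0.83, and 3 of 3 neural markers were lower, and their part in these counts was not tested. Slc37a4 was higher by 1.14, whereas Ppp1r3c was lower by 1.59 and Thrsp by 2.75. The direction of Slc37a4 and Ppp1r3c was thus opposite to that between CC and NC, and these comparisons share the CC arrays.

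In brain 5 members passed the filter, Gckr, Khk, Fbp1, Ppp1r3g and Mlxipl, each through a probe that was well above background on all 12 arrays. Slc2a2, G6pc and Pklr did not pass. Between G20 and NC 2 of 5 were called, Gckr and Ppp1r3g, both higher in G20, in a comparison in which 1.79% of all 18299 genes were called and 1.26% were higher. Gckr stood at −3.04, −2.98, −3.09 and −3.22 on the G20 arrays, −2.23, −2.38, −2.29 and −2.26 on the CC arrays, and −3.71, −3.57, −3.38 and −3.40 on the NC arrays. Ppp1r3g stood at −2.33, −2.54, −3.00 and −2.44 on the G20 arrays, −2.34, −2.29, −2.07 and −1.82 on the CC arrays, and −3.47, −3.08, −3.52 and −3.48 on the NC arrays. For both genes every G20 array was above every NC array, as was so in either direction for 12.1% of all genes. Gckr was 0.43 above NC in G20 (SE 0.09, 95% interval 0.25 to 0.62, adjusted p = 0.0300), or 1.35-fold. Ppp1r3g was 0.81 above (SE 0.16, 95% interval 0.46 to 1.16, adjusted p = 0.0314), or 1.75-fold. Gckr kept its call in 7 of 16 alternatives and Ppp1r3g in 5 of 16, with differences of 0.37 to 0.67 and adjusted p between 0.0251 and 0.796 for Gckr, and differences of 0.73 to 0.95 and adjusted p between 0.00755 and 0.796 for Ppp1r3g. Leaving out any of G20 arrays 1 or 2 or NC array 1 ended both calls, NC array 2 also that of Gckr, and G20 array 4 and NC arrays 3 and 4 also that of Ppp1r3g. Khk (0.22, adjusted p = 0.258, or 0.33 with an adjusted p of 0.0415 without the third G20 array), whose second probe gave −0.05, Mlxipl (0.17, adjusted p = 0.379) and Fbp1 (0.07, adjusted p = 0.896) did not pass. Of 5 erythroid markers none was called, but differences of G20 minus NC ran from 0.55 to 1.52 with a median of 1.39, and the 6 with no spot left out summed to 74.4 to 107 in G20 and 30.4 to 79.7 in NC brain. Macrophage markers summed to 1.85 to 2.18 in G20 and 2.33 to 2.50 in NC brain. Of 8 hepatocyte markers measured in brain 1 was higher in G20 and none lower. Their differences ran from −1.44 to 2.09 with a median of 0.31. All 10 on the list summed to 0.944 to 2.37 in G20 and 1.97 to 2.60 in NC brain. The part of these markers in the calls was not tested.

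**Figure D5:**
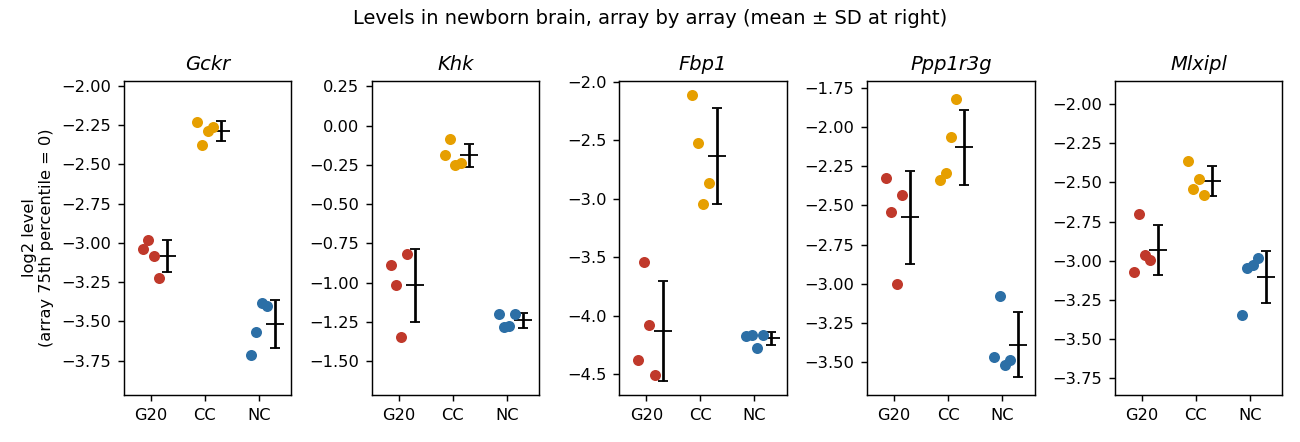
Log2 level of the 5 members kept in brain on the 12 brain arrays (y axis, 0 is the array's 75th percentile), with G20 at left, then CC and NC; bars are mean ± SD of 4 arrays, and each panel has its own y range. CC arrays lie above all NC arrays in each panel, and G20 arrays lie above NC for Gckr and Ppp1r3g.

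All 5 members were higher in CC than in NC brain, where 69.2% of all genes were called and 41.4% were higher, and all 5 were lower in G20 than in CC brain, where 67.5% were called, 28.7% higher and 38.8% lower in G20. Fbp1 stood at −4.38, −3.54, −4.08 and −4.51 on the G20 arrays, −2.11, −2.52, −3.04 and −2.86 on the CC arrays, and −4.17, −4.17, −4.27 and −4.16 on the NC arrays. Khk stood at −0.89, −1.02, −1.35 and −0.82 on the G20 arrays, −0.19, −0.08, −0.25 and −0.24 on the CC arrays, and −1.20, −1.28, −1.28 and −1.20 on the NC arrays. Mlxipl stood at −3.07, −2.70, −2.96 and −3.00 on the G20 arrays, −2.36, −2.55, −2.48 and −2.58 on the CC arrays, and −3.35, −3.05, −3.03 and −2.99 on the NC arrays. CC arrays were above all NC arrays for all 5 members, as 63.3% of all genes did not overlap, and above all G20 arrays for all but Ppp1r3g, as 59.5% did not. CC minus NC was 1.56 for Fbp1 (adjusted p = 4.72e-05), 1.23 for Gckr (adjusted p = 2.64e-07), 1.05 for Khk (adjusted p = 2.59e-06), 0.61 for Mlxipl (adjusted p = 0.000195) and 1.26 for Ppp1r3g (adjusted p = 2.48e-05). G20 minus CC was −1.49 for Fbp1, −0.79 for Gckr, −0.83 for Khk, −0.44 for Mlxipl and −0.45 for Ppp1r3g. The call of Ppp1r3g between G20 and CC ended without CC array 3 or 4 or G20 array 3, with differences of −0.43 to −0.31.

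Several measures of the arrays moved with these CC differences in brain. Without the scaling to the 75th percentile, CC minus NC was 0.52 for Fbp1, 0.19 for Gckr, 0.01 for Khk, −0.43 for Mlxipl and 0.22 for Ppp1r3g. The 10797 probes that were not well above background on any CC or NC brain array had a median scaled difference of 0.91 in the same comparison. In the authors' processed values, CC minus NC was 0.76 for Ppp1r3g (adjusted p = 0.0323), which kept its call in 16 of 16 alternatives. It was 0.41 for Gckr (adjusted p = 0.0507), 0.16 for Khk, 0.10 for Mlxipl and −0.04 for Fbp1. In those values G20 minus CC was 0.06 for Fbp1, 0.05 for Khk, 0.04 for Mlxipl and 0.02 for Ppp1r3g, none of them called. Of 8 hepatocyte markers measured in brain, 5 were higher and 1 lower in CC, with a median difference of 1.81, although their sums stayed at or below 4.93. Of 8 neural markers 1 was higher and 5 lower, with a median of −0.31, and of 5 macrophage markers 3 were higher, with a median of 0.61. The part of dim signal, scan session and these markers in the members' rise in CC brain was not tested.

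The CC difference was larger in brain than in liver for all 5 members measured in both tissues. The difference of CC minus NC in liver minus that in brain was −1.80 for Fbp1 (SE 0.24, adjusted p = 2.47e-06), −1.41 for Gckr (SE 0.16, adjusted p = 2.50e-07), −1.07 for Khk (SE 0.15, adjusted p = 5.02e-06), −0.59 for Mlxipl (SE 0.20, adjusted p = 0.0186) and −1.95 for Ppp1r3g (SE 0.61, adjusted p = 0.00995). All 5 were called, in a test in which 54.3% of 14767 genes were. With normexp background correction Fbp1 kept its call (adjusted p = 0.0469), while Gckr (0.0530), Khk (0.0554), Mlxipl (0.155) and Ppp1r3g (0.0628) had adjusted p above the threshold, with differences of the same sign. The same difference for G20 and NC was called for 0 of 5 by limma, with 2 at an unadjusted p under 0.05, where 3.87% of 14766 genes were called, and ran from −0.35 to −0.08.

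In the lists around the members, brain differed little between G20 and NC. Of 127 genes measured, 3 were higher and 1 lower in G20, 3.15% against 1.79% of all genes. Creb3l3, a fasting-induced transcription factor of liver, stood at −0.96, −1.28, −2.24 and −0.89 on the G20 arrays and at −2.60, −2.98, −2.67 and −2.41 on the NC arrays, a difference of 1.32 (adjusted p = 0.0257). Slc2a3, the neuronal glucose transporter gene, rose by 0.49 (adjusted p = 0.0359) and Slc2a5, a fructose transporter gene, by 0.48 (adjusted p = 0.0410). Gpd1 fell by 0.64 (adjusted p = 0.0143), and it also fell in G20 liver. Between CC and NC brain 79 of 127 were higher and 16 lower (74.8%), and between G20 and CC brain 19 were higher and 72 lower (71.7%). All genes were called at 69.2% and 67.5% there.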

How the data were processed

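Gene expression was measured on 24 single-colour arrays, of brain and liver in 3 groups of 4. Per the file headers, the scanner intensity of each spot was background-subtracted and detrended by Agilent Feature Extraction (9.5.3.1, per the submitters' processing notes). The deposited flags for background, saturation and outliers are values of another kind, 0 or 1. The authors' deposited value table holds intensity on a linear scale. How its values were scaled is unstated in the sources used here. Its NC and G20 columns equal the scanner values up to a constant (r of 1.00 after rounding), with column medians of 7.80 to 8.62 on a log2 scale. CC columns, with medians of 8.23 to 8.94, carry a further offset for each probe (SD 0.627 to 0.657). On each CC array the authors' values correlated with the scanner values at r of 0.970 to 0.971, but several called differences that involve CC changed sign in them. How these values were centred stays unknown. They served as an alternative.

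Outlier spots were left out, spots of a probe were averaged, and log2 signal was centred on each array's 75th percentile. Names came through the accession for 23374 probes, and 17800 kept the name in the file. The filter kept probes well above background on all 4 arrays of 1 or more groups of the tissue, and a gene was its kept probe with the highest mean. No annotation of mm8 was used, so probes are given by position without exon or intron. Tests used limma 3.58.1 (R 4.3.3 with data.table, version 1.17.8) over the 12 arrays of a tissue, and between tissues over all 24, with Benjamini-Hochberg adjustment over all genes at 0.05. The procedure was tested on simulated data. Correlations used 100000 permutations in Python 3.11.15 (SciPy 1.17.1, NumPy 2.4.6, pandas 2.3.3), and figures matplotlib 3.10.9. The small number of arrays limits the precision.

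The members and lists were chosen with earlier results of these data known. Named genes were all members, up to 4 called genes of each pathway list with the largest differences, and for each member the 1 gene with the highest correlation. In the lists, Tkfc, Sik1 and Pgm1 carry older names in the files. Alternatives were other background correction, scaling, filters, probe summaries, blocks and each array left out.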

Additional observations from a re-analysis of the deposited data

Results flagged for a closer look

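Among 39 sets of 4 arrays (one member, tissue and group), 3 held a value standing apart from the other 3 arrays, and chance alone gives about 1 in 20. All 3 were in NC brain. Ppp1r3g stood at −3.08 on the second array, against −3.52 to −3.47 on the others. Mlxipl stood at −3.35 on the first array, against −3.05 to −2.99, and Fbp1 at −4.27 on the third, against −4.17 to −4.16.

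The difference between CC and NC was not the same in liver and brain for all 5 members measured in both, by limma's test of the difference between tissues. The liver difference minus the brain difference was −1.80 for Fbp1, −1.41 for Gckr, −1.07 for Khk, −0.59 for Mlxipl and −1.95 for Ppp1r3g. With normexp background correction 1 of the 5, Fbp1, kept its call. CC arrays of both tissues were scanned in 1 session apart from the NC arrays, and the part of the session was not tested.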

How the results depend on the processing

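Over 854 repeats of single member differences, 736 kept their direction and their side of the threshold, 56 lost and 10 gained a call with the direction kept, 44 changed sign without a call in either setting, and 8 turned round a called difference. Gene counts (liver G20 and NC 1183, CC and NC 6637, G20 and CC 7326; brain 328, 12669 and 12358; between tissues 571 for G20 and 8025 for CC) and member counts moved past 1.5 times as follows, and the cause was not tested. With normexp background correction the gene counts were 5043, 233 and 2209 in liver, 2, 5329 and 3816 in brain, and 180 and 1757 between tissues, where 1 of 5 members kept its call for CC, with 2, 0 and 0 members called in liver and 0 and 1 in brain for G20 against NC and against CC. Without the filter on dim probes, 14505 genes were called in liver between G20 and CC, 141, 20189 and 19674 in brain, and 981 between tissues for G20, with 0 members in brain between G20 and NC. Median scaling left 0 members in liver between CC and NC and 1 between G20 and CC. With only the compared groups' arrays, 1 member, Slc2a2 (adjusted p = 0.0403), was called in liver between G20 and NC, and in brain 151 genes and 0 members. Of the members at 0 calls in liver, 0 to 4 had an unadjusted p under 0.05 by limma, and in brain between G20 and NC 1 to 3. Quantile normalization turned Fbp1 in liver to 0.26 for CC minus NC and −0.30 for G20 minus CC.

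With the authors' processed values 944, 1014 and 0 genes were called in liver and 146, 219 and 140 in brain, with 1, 0, 0, 0, 1 and 0 members. In liver between G20 and CC 0 genes had even an unadjusted p under 0.05 by limma, and the SD of the difference over genes was 0.0978, against 0.589 in the scanner values, so the CC liver columns of that table lie close to the G20 means. Called differences that turned round there, none called, were 0.0257 for Pklr in liver (G20 minus CC) and, in brain, −0.0397 for Fbp1 (CC minus NC) and 0.0580 for Fbp1, 0.0459 for Khk, 0.0402 for Mlxipl and 0.0238 for Ppp1r3g (G20 minus CC). The part of calls that were higher moved from 58.7% to 16.7% with normexp and 35.5% with median scaling for liver G20 against NC, from 46.7% to 13.7% with normexp for CC against NC, from 56.3% to 37.7% with median scaling for G20 against CC, and in brain from 70.1% to 50% with normexp, 58.5% with quantile and 58.6% with median scaling for G20 against NC and from 42.5% to 30.8% with median scaling for G20 against CC. The median of all genes for CC minus NC in brain was 0.13, and 0.39 with normexp, 0.07 with quantile and 0.25 with median scaling.

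Replicate numbers did not pair arrays within a tissue, where deviations of same-numbered arrays correlated between −0.23 and 0.13. The replicate block gave 729 genes in liver between G20 and NC, 0 members between CC and NC and 1 between G20 and CC, and 151 genes and 0 members in brain between G20 and NC. Deviations of same-numbered arrays were also compared across tissues. A block by animal across tissues, chosen after the data were seen, gave 631 genes for G20 and 8331 for CC. Slide as a block could not be fitted, since each slide held 1 group.

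Leaving out 1 array gave 588 to 1141 genes and 0 members in liver between G20 and NC, 5567 to 6587 and 0 to 1 between CC and NC, and 6323 to 7423 and 1 to 3 between G20 and CC. In brain it gave 132 to 525 and 0 to 3, 11984 to 12418 and 5, and 11651 to 12334 and 4 to 5 for the same comparisons. Between tissues it gave 400 to 719 for G20 and 7598 to 8074 for CC. Pklr between G20 and NC liver kept its sign in 16 of 16 alternatives (−0.32 to −0.21, adjusted p 0.0794 to 0.204). Unscaled signal was not among them, and there the difference was 0.46. Dim signal limits the brain values of Slc2a2, G6pc and Pklr.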
